A study of Mus musculus with 10 samples.

Results

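The transcript levels of 9 genes of the Nrf2 pathway and its oxidative stress defence were followed in a mammary epithelial cell line given an siRNA against Irf1, the cytokine TGFbeta, or both. The 9 genes were chosen by name from the pathway (Nfe2l2, Keap1, Nqo1, Hmox1, Gclc, Gclm, Txnrd1, Srxn1 and Slc7a11), out of 24454 genes with a row in the table of counts. The choice was made with earlier results of these data known. All 9 had enough counts to be tested, among 13135 genes tested. The cells were subclone 9 (E9) of NMuMG, an epithelial line from normal mouse mammary gland that undergoes an epithelial-mesenchymal transition under TGFbeta. All groups are thus 1 clone of 1 line, and all received an siRNA at 20 nM. The groups were siIrf1 with TGFbeta (3 libraries), siCtr (control siRNA) with TGFbeta (2 libraries, replicates 2 and 3), siIrf1 at 0 d (3 libraries) and siCtr at 0 d (2 libraries, replicates 1 and 3). Recombinant human TGFbeta1 at 2 ng/ml was present for the last 2 d before harvest on day 3, and 0 d cells had the siRNA for the same 3 days without it. The labels do not say that replicates came from separate cultures, so p-values measure only how these samples spread, and that spread may be technical.

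Nrf2, the product of Nfe2l2, is a transcription factor that is kept low by Keap1, an adaptor that hands it to a ubiquitin ligase for degradation. When oxidants or electrophiles modify Keap1, Nrf2 accumulates, pairs with a small Maf protein and binds antioxidant response elements in genes for glutathione synthesis, thioredoxin reduction, quinone detoxification, heme breakdown and cystine uptake. Because this control acts on the protein, the Nfe2l2 transcript is not a measure of Nrf2 activity. In epithelial cells TGFbeta is known as a source of oxidants, and Irf1 is a transcription factor of the interferon response.

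Irf1 itself had 36.5, 46.2 and 41.0 CPM in the siIrf1 TGFbeta libraries, against 106 and 112 CPM with siCtr and TGFbeta, where CPM is counts scaled to a common effective library size. At 0 d it had 56.4, 64.1 and 57.7 CPM with siIrf1 and 148 and 129 CPM with siCtr. The knockdown was 2.64-fold with TGFbeta and 2.33-fold without it, so every siIrf1 group kept part of its Irf1 transcript. Libraries held 27547649 to 67301646 counts, and replicates of a group correlated at 0.971 to 0.995 over genes. The libraries also differed in how GC-poor and GC-rich genes were represented. The mean deviation of the 20% of genes lowest in GC minus that of the 20% highest was between -0.38 and 0.83 (log2) in siIrf1 TGFbeta, both -0.51 in siCtr TGFbeta, 0.21 to 1.01 in siIrf1 0 d, and -1.46 and -0.71 in siCtr 0 d. No siIrf1 library overlapped a siCtr library in this index, the siIrf1 ones being the higher. Replicate 2 was lowest in siIrf1 TGFbeta (-0.38, against 0.73 and 0.83). It was also lowest in siIrf1 0 d (0.21, against 0.80 and 1.01). In siCtr 0 d replicate 1 was the lower (-1.46, against -0.71). With 2 libraries in that group, neither can be said to stand apart. The 9 genes range in transcript GC content from 40.7% in Slc7a11 to 58.0% in Keap1, so results were also computed with the trend of library values on GC content and length removed. The epithelial markers Krt8, Krt18, Krt19 and Cdh1 had 282 CPM or more in every library, whereas Epcam, Cldn3 and Cldn7 had at most 1 count in any. Their levels differed between groups. In siCtr cells Krt19 had 2412 to 2464 CPM at 0 d and 282 to 332 CPM with TGFbeta. In siIrf1 cells it had 1870 to 2496 and 568 to 1397 CPM. Cdh1 had 586 to 694 and 339 to 363 CPM with siCtr, and 581 to 621 and 577 to 722 CPM with siIrf1. Krt8 and Krt18 were instead highest in siCtr TGFbeta (4669 to 5293 and 7432 to 7667 CPM). Macrophage markers summed to between 27.8 and 58.2 CPM, most of it Csf1r, with Adgre1 at 0 counts, and erythroid markers to at most 11.6 CPM. Fibroblast markers summed to 27.1 to 38.9 CPM with TGFbeta and 0.424 to 0.976 CPM at 0 d, and endothelial markers to at most 5.92 CPM. The part of these markers in the results was not tested, and in bulk RNA fewer cells of a type and less RNA per cell cannot be told apart.

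Promoter sequence was at hand for 7 of the 9 genes, from RefSeq on GRCm38.p6. It is shown for some of these genes, running 5′ to 3′ on the gene's own strand from 250 bases before the start site. Annotated exons of the gene itself were left out, but those of other genes were not. The Txnrd1 stretch shown includes an annotated exon of Gm38560 (82858957 to 82859008). Capitals mark matches to the core of the antioxidant response element, searched as TGACNNNGC and as TGAGNNNGC on both strands, to an AP-1 site (TGANTCA) or to a C/EBP-ATF site (TGATGNAAN). These motifs can overlap. Of 32851 such promoter windows, 23.0% held either core form, 6.75% the AP-1 site and 3.44% the C/EBP-ATF site.
Srxn1, chr2:152105274-152105515, plus strand: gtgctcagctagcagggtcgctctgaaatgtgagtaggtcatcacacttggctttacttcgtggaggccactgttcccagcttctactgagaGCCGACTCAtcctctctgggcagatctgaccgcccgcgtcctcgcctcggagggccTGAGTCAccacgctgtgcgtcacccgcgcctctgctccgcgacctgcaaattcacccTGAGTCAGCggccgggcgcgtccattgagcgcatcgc
Gclm, chr3:122245307-122245486, plus strand: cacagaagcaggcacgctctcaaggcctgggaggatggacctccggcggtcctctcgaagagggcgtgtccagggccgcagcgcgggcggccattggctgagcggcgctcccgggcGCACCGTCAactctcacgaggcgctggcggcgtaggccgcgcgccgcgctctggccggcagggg
Txnrd1, chr10:82858956-82859178, plus strand: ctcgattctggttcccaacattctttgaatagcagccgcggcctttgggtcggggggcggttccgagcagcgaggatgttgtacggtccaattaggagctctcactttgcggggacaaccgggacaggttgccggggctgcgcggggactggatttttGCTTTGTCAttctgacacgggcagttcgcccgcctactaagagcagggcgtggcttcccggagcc
Nqo1, chr8:107403207-107403455, minus strand: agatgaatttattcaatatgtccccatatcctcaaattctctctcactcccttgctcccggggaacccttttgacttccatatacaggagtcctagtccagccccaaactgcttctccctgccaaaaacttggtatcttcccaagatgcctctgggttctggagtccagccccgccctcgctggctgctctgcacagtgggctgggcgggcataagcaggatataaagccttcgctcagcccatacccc
Slc7a11, chr3:50443615-50443863, minus strand: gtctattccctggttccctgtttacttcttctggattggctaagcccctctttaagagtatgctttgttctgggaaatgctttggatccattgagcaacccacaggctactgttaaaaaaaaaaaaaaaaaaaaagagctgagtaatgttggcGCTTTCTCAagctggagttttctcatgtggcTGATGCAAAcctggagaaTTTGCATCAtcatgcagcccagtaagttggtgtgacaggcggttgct
Srxn1 held 2 matches to the core, at 158 to 150 and 45 to 37 bases before its start, the second of which contains an AP-1 match. A separate AP-1 match in Srxn1 lay at 102 to 96 bases. Gclm had 1 core match (134 to 126 bases) and Txnrd1 1 (92 to 84 bases, at the start site 82859206). Of the 3 Txnrd1 windows, those at the start sites 82833951 and 82860341 held no match and are not shown. Slc7a11 had 1 core match at 97 to 89 bases and 2 C/EBP-ATF matches, at 66 to 58 and 48 to 40 bases. In Nqo1 none of the motifs was found, which says only that these letters are not in this window. Of the genes not shown, Nfe2l2 had 1 core match at 240 to 232 bases, and in Keap1 none of the motifs was found. An IRF site, searched as GAAA, any 2 bases and GAAA, and present in 2.98% of all windows, was in none of the 7. A match is a description of the letters and not evidence of binding.

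Per kilobase of transcript, the order of levels differed between the groups. In siCtr 0 d cells Gclc, the catalytic subunit of glutamate-cysteine ligase, was highest at 196 ± 7.02 CPM per kb (mean ± SD, n = 2). Gclm (131 ± 22.2), Srxn1 (124 ± 46.5) and Txnrd1 (100.5 ± 22.3 CPM per kb) followed, and neighbours among these 3 overlapped in their libraries. Nqo1, Nfe2l2 and Hmox1 lay at 35.5 to 43.8 CPM per kb, again with overlap between neighbours. Keap1 was at 16.2 ± 2.00 CPM per kb, and Slc7a11 was lowest at 0.866 ± 0.141. In siIrf1 0 d cells Gclc was also highest, at 176 ± 20.2 CPM per kb (n = 3). In both TGFbeta groups Gclm and Txnrd1 led and Gclc stood in rank 5, at 31.0 ± 2.45 CPM per kb in siIrf1 TGFbeta (n = 3) and 28.5 ± 0.0383 in siCtr TGFbeta (n = 2). Libraries of Gclm and Txnrd1 overlapped in both groups, and those of Txnrd1 and Srxn1 in siCtr TGFbeta. In siIrf1 TGFbeta, Gclc overlapped Hmox1 (32.6 ± 5.05 CPM per kb) and Nfe2l2 (27.5 ± 6.56), so its rank there is not settled. Slc7a11 was lowest in all 4 groups. Over the 10 libraries Nqo1 varied most, 23.3-fold between its highest and lowest library, followed by Gclc at 7.06-fold, and Txnrd1 varied least, 1.97-fold.

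**Figure D1:**
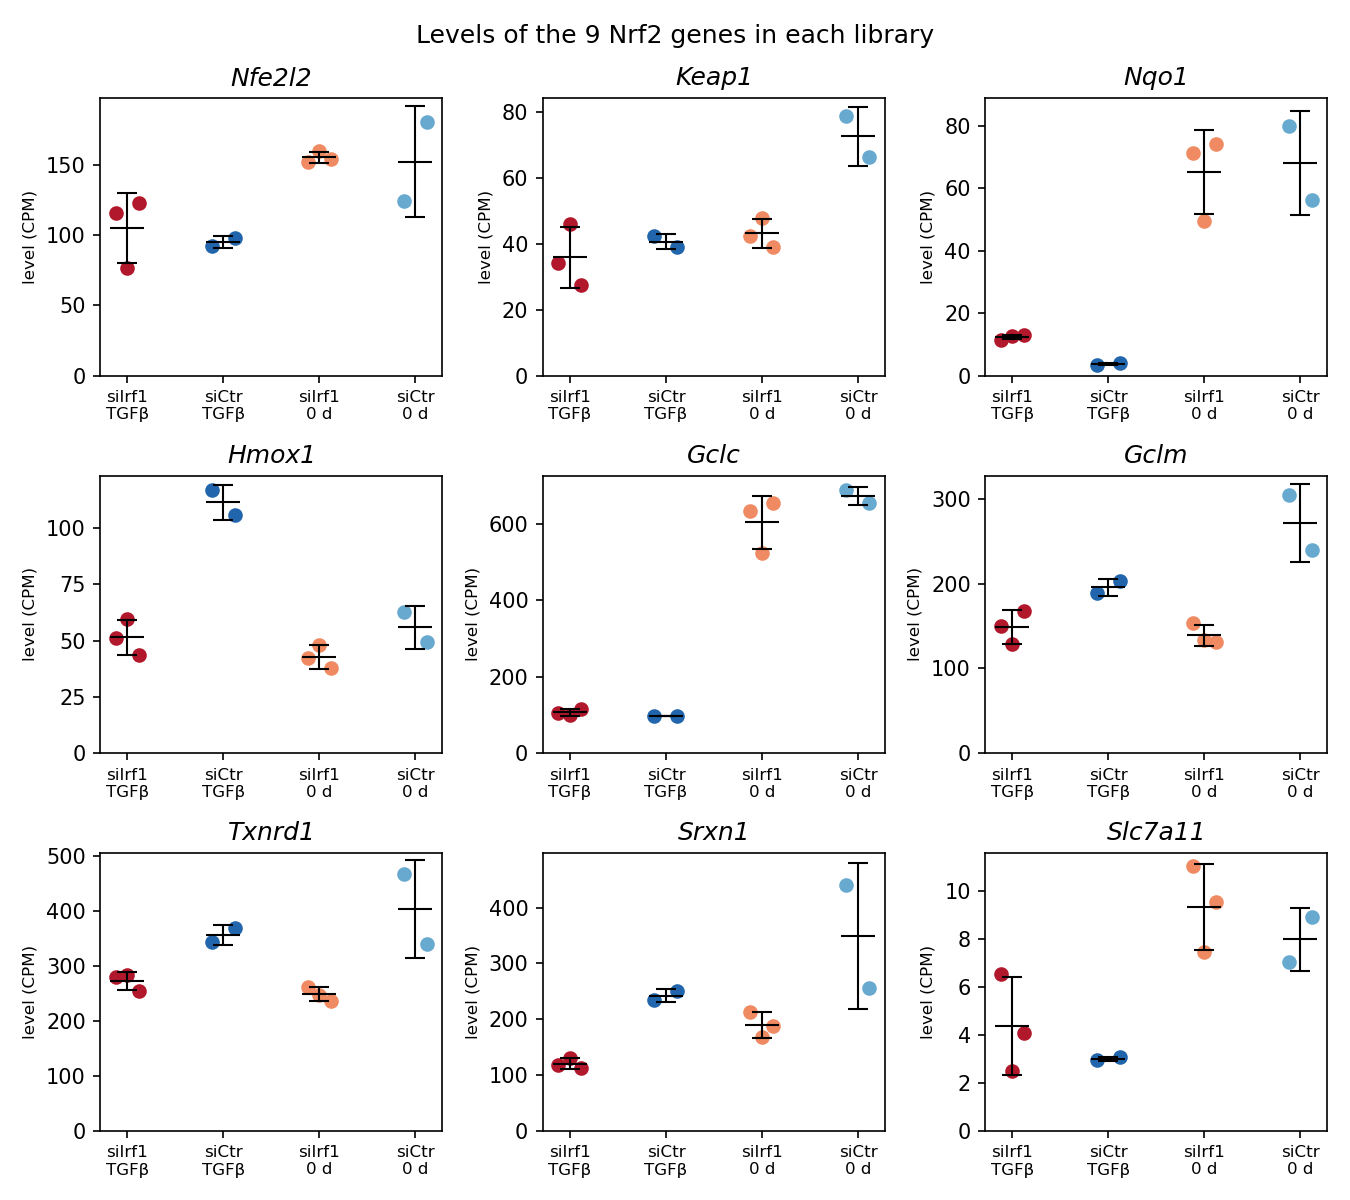
Level of each of the 9 genes in each of the 10 libraries (CPM, linear axes from 0), 1 point per library, with bars for the group mean ± SD (n = 3 for siIrf1, 2 for siCtr groups). Nqo1 and Gclc lie far lower in both TGFbeta groups than at 0 d, while Hmox1 is highest in the 2 siCtr TGFbeta libraries, at 117 and 106 CPM.

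The first question is what TGFbeta did to the pathway in cells with the control siRNA. The transcripts of the quinone reductase Nqo1, the glutathione synthesis subunit Gclc, the cystine importer Slc7a11 and the Nrf2 inhibitor Keap1 fell, and that of the heme oxygenase Hmox1 rose. In all, 5 of the 9 genes changed at an adjusted p under 0.05 (1 higher, 4 lower), against 32.5% of all genes tested (16.1% higher, 16.3% lower). The median log2 fold change of the 9 was -0.68, beside 0.02 over all genes. Because the 9 were chosen with earlier results known, such counts and medians describe the set, here and in the comparisons below. They are not a test of it. Adjusted p-values are from edgeR's quasi-likelihood test with Benjamini-Hochberg adjustment over all genes of a comparison.

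Nfe2l2 (chromosome 2, 75675513 to 75704663, GRCm38) had 91.9 and 98.0 CPM in siCtr TGFbeta libraries and 124 and 180 CPM in siCtr 0 d libraries. The groups did not overlap, as in 71.9% of genes tested, but the difference missed the threshold (log2 fold change -0.68 ± 0.242 SE, adjusted p = 0.0548). It passed with the GC and length trend removed (-0.88, adjusted p = 0.000491) and without siCtr 0 d replicate 1, siIrf1 TGFbeta replicate 2 or replicate 3 (adjusted p 0.0303, 0.0145 and 0.0468). Without siCtr 0 d replicate 3 the log2 fold change was -0.27. Keap1 (chromosome 9, 21229730 to 21239332) had 42.2 and 39.0 CPM with TGFbeta, against 78.9 and 66.2 CPM at 0 d. Both siCtr TGFbeta libraries were below both 0 d libraries, and the fall was 1.79-fold (log2 -0.84 ± 0.240, adjusted p = 0.0229). The call was lost without siCtr TGFbeta replicate 2 or 3 or siCtr 0 d replicate 1, with values of -0.80, -0.70 and -0.66.

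Nqo1 (chromosome 8, 107388225 to 107403205), a quinone reductase often used as a readout of Nrf2, showed the largest change of the 9. It had 3.42 and 3.96 CPM in siCtr TGFbeta libraries, against 79.8 and 56.2 CPM in siCtr 0 d libraries. The groups were far apart, with an 18.4-fold fall (log2 -4.20 ± 0.279, adjusted p = 4.79e-06) that was called in all 19 alternative settings, between -4.32 and -3.89. Hmox1 (chromosome 8, 75093618 to 75100593), the inducible heme oxygenase, moved the other way. It had 117 and 106 CPM with TGFbeta and 62.8 and 49.2 CPM at 0 d. The rise was 1.99-fold (log2 0.99 ± 0.211, adjusted p = 0.00514), without overlap, and held in all 19 settings.

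The paired subunits of glutamate-cysteine ligase, which makes the first step of glutathione synthesis, parted. Gclc (chromosome 9, 77754535 to 77794489) had 97.8 and 97.7 CPM with TGFbeta and 690 and 656 CPM at 0 d. It fell 6.88-fold (log2 -2.78 ± 0.168, adjusted p = 3.20e-06), again in all 19 settings. Gclm (chromosome 3, 122245487 to 122267215), the modifier subunit, had 189 and 203 CPM with TGFbeta, against 305 and 240 CPM at 0 d. Its log2 fold change of -0.47 ± 0.184 missed the threshold (adjusted p = 0.0732). It passed with the GC and length trend removed (-0.91, adjusted p = 0.0255) and, at -0.47, without siIrf1 TGFbeta replicate 2 (adjusted p = 0.0455). Slc7a11 (chromosome 3, 50364936 to 50499087), the cystine importer, was low throughout, with 2.94 and 3.06 CPM with TGFbeta and 7.07 and 8.91 CPM at 0 d. It fell 2.66-fold (log2 -1.41 ± 0.403, adjusted p = 0.0230), a call that was lost without siCtr TGFbeta replicate 2 (-1.30), siCtr TGFbeta replicate 3 (-1.37) or siCtr 0 d replicate 3 (-1.12), and with the replicate block (-1.05, adjusted p = 0.0540). With the GC and length trend removed it was -2.46 ± 0.312.

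Txnrd1 (chromosome 10, 82833951 to 82897724), the cytosolic thioredoxin reductase, had 344 and 369 CPM with TGFbeta and 467 and 340 CPM at 0 d. The groups overlapped (log2 -0.18 ± 0.172, adjusted p = 0.448). Txnrd1 shares a stretch of genome with Eid3, which had 142 counts over all libraries, and the strand use of the counting is not given. Srxn1 (chromosome 2, 152105524 to 152111376), which reactivates overoxidised peroxiredoxins, had 234 and 250 CPM with TGFbeta and 441 and 256 CPM at 0 d. Its log2 fold change was -0.53 ± 0.236 (adjusted p = 0.112), and it ranged from -0.75 (adjusted p = 0.0184) without siCtr 0 d replicate 3 to -0.04 without siCtr 0 d replicate 1. The siCtr 0 d libraries themselves differed more in Srxn1 than the groups did, with replicate 1 the higher.

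The same comparison in siIrf1 cells asks what TGFbeta did with Irf1 lowered, and it uses other libraries than the comparison in siCtr cells. Gclc, Nqo1, Slc7a11 and Srxn1 fell and no gene of the 9 rose, so that 4 were called, against 21.3% of all genes tested (11.6% higher, 9.71% lower). Gclc had 105, 98.5 and 115 CPM in siIrf1 TGFbeta libraries and 634, 525 and 654 CPM in siIrf1 0 d libraries. The fall was 5.68-fold (log2 -2.51 ± 0.136, adjusted p = 2.00e-06), with no overlap, as in 35.8% of genes tested. Nqo1 had 11.5, 12.6 and 12.9 CPM with TGFbeta, against 71.2, 49.6 and 74.2 CPM at 0 d. It fell 5.27-fold (log2 -2.40 ± 0.208, adjusted p = 2.72e-05), and both calls held in all 19 settings.

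Slc7a11 had 6.55, 2.49 and 4.06 CPM in siIrf1 TGFbeta libraries and 11.1, 7.46 and 9.58 CPM in siIrf1 0 d libraries. The fall was 2.16-fold (log2 -1.11 ± 0.323, adjusted p = 0.0340). The call was lost in a fit of the compared groups alone (adjusted p = 0.0649) and without siIrf1 TGFbeta replicate 2 (-0.82) or 3 (-1.07) or siIrf1 0 d replicate 1 (-0.97) or 3 (-1.09). Srxn1 had 118, 130 and 112 CPM with TGFbeta, against 213, 168 and 187 CPM at 0 d. It fell 1.58-fold (log2 -0.66 ± 0.193, adjusted p = 0.0344), and the call was lost without siIrf1 TGFbeta replicate 1 (-0.64) or 3 (-0.61) or siIrf1 0 d replicate 1 (-0.57) or 3 (-0.67). In both genes every siIrf1 TGFbeta library was below every siIrf1 0 d library.

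The other 5 genes did not pass in siIrf1 cells. Nfe2l2 had 116, 76.4 and 123 CPM with TGFbeta and 152, 160 and 154 CPM at 0 d (log2 -0.56 ± 0.197, adjusted p = 0.0707). It passed with the GC and length trend removed (-0.61, adjusted p = 0.00190) and without siIrf1 TGFbeta replicate 3 (-0.69, adjusted p = 0.04997), siCtr 0 d replicate 1 (-0.57, adjusted p = 0.0390) or siCtr 0 d replicate 3 (-0.56, adjusted p = 0.0387). Replicate 2 of siIrf1 TGFbeta was its lowest library, and the groups did not overlap. Keap1 had 34.2, 45.9 and 27.6 CPM with TGFbeta, against 42.3, 47.8 and 39.1 CPM at 0 d. The groups overlapped (-0.26 ± 0.195, adjusted p = 0.414), and with the GC and length trend removed the value was -0.69 (adjusted p = 0.00248). For Hmox1, with 51.1, 59.5 and 43.6 CPM under TGFbeta and 42.1, 48.1 and 37.6 CPM at 0 d, the log2 fold change was 0.27 ± 0.171 (adjusted p = 0.325). It passed with the trend removed and the replicate block in 1 fit (0.29, adjusted p = 0.0433). Gclm (0.10 ± 0.150) and Txnrd1 (0.13 ± 0.141) lay near 0 with overlapping libraries.

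Whether the TGFbeta effect itself differed between the siRNAs was tested as an interaction, the log2 fold change of TGFbeta in siIrf1 cells minus that in siCtr cells. Nqo1 was the 1 gene of the 9 that passed, against 4.12% of all genes tested (2.8% higher, 1.32% lower). Its difference was 1.81 ± 0.321 (adjusted p = 0.0127): the fall was larger in siCtr cells. The call was lost without siCtr TGFbeta replicate 2 (1.61, adjusted p = 0.127), siCtr TGFbeta replicate 3 (1.83, adjusted p = 0.0660) or siCtr 0 d replicate 1 (1.49, adjusted p = 0.0583). Hmox1 had -0.72 ± 0.270 (adjusted p = 0.189), and passed with the GC and length trend removed (-1.03, adjusted p = 0.00364). Without both siIrf1 TGFbeta replicate 2 and siCtr 0 d replicate 1 it was -1.09. For Gclc the difference was 0.28 ± 0.203 (adjusted p = 0.502), and its fall in siIrf1 cells was thus not shown to differ from that in siCtr cells.

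**Figure D2:**
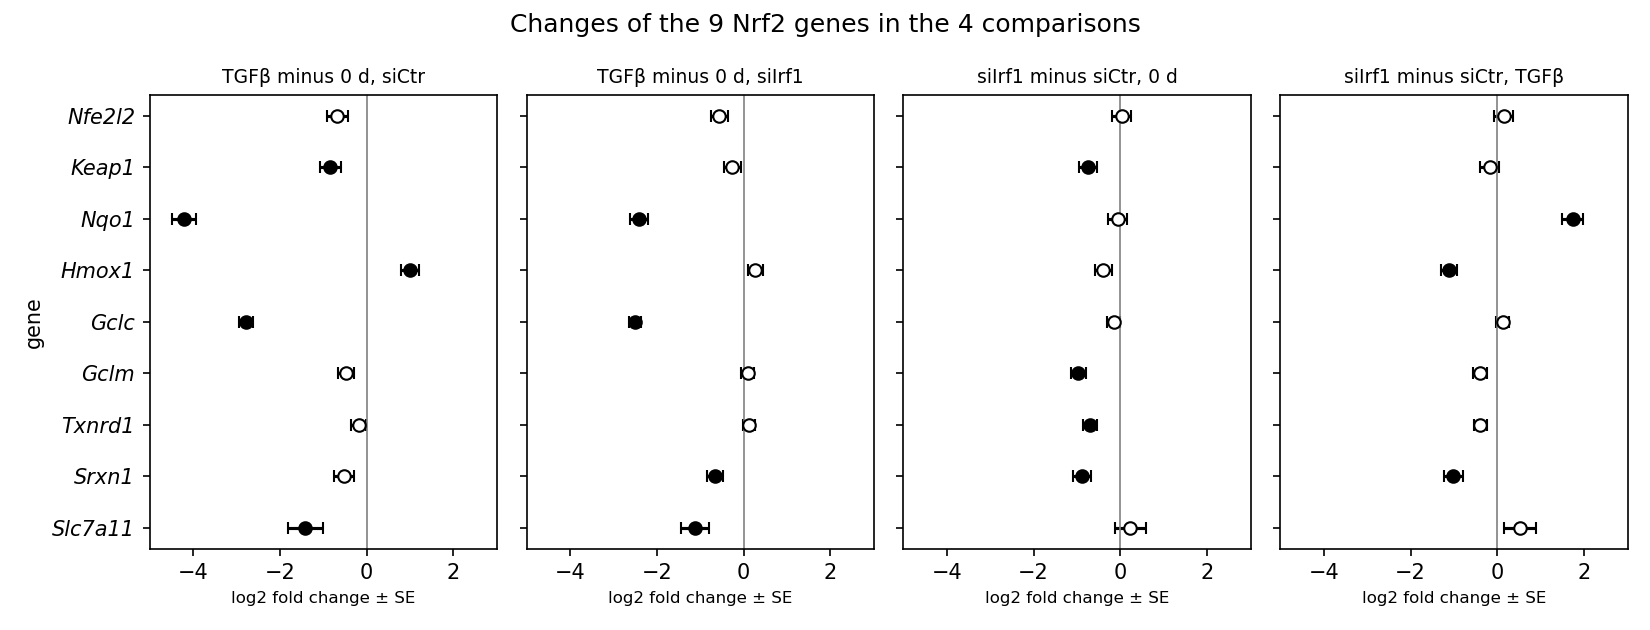
Log2 fold change of each of the 9 genes in each comparison, with bars of 1 SE from the fit of all 10 libraries; filled points passed an adjusted p under 0.05. Gclc and Nqo1 lie far below 0 with TGFbeta under both siRNAs, and Gclm, Txnrd1, Srxn1 and Keap1 lie below 0 for siIrf1 at 0 d.

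Irf1 knockdown without TGFbeta asks which genes of the pathway differ with Irf1 lowered in unstimulated cells. Gclm, Txnrd1, Srxn1 and Keap1 were lower in siIrf1 cells, whereas Nqo1, Gclc and Nfe2l2 did not pass. Thus 4 of 9 were called, all lower, against 31.8% of all genes tested (16.3% higher, 15.5% lower), with a median of -0.39 over the 9 and -0.03 over all genes. The siCtr 0 d group here is the same that serves as baseline of TGFbeta in siCtr cells, so the comparisons share those libraries.

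Gclm had 153, 133 and 131 CPM in siIrf1 0 d libraries and 305 and 240 CPM in siCtr 0 d libraries. The groups did not overlap, as in 62.3% of genes tested, and the fall was 1.96-fold (log2 -0.97 ± 0.166, adjusted p = 0.00278), called in all 19 settings. With the GC and length trend removed the value was -2.08 ± 0.256. Txnrd1 had 262, 246 and 237 CPM with siIrf1, against 467 and 340 CPM with siCtr. It fell 1.63-fold (log2 -0.70 ± 0.156, adjusted p = 0.00885), which was lost without siCtr 0 d replicate 1 (-0.46, adjusted p = 0.110). Srxn1, whose promoter held 2 core matches, had 213, 168 and 187 CPM with siIrf1 and 441 and 256 CPM with siCtr. It fell 1.84-fold (log2 -0.88 ± 0.212, adjusted p = 0.0125), and the call was lost without siCtr 0 d replicate 1 (-0.45, adjusted p = 0.177) and with the GC and length trend removed (-0.46, adjusted p = 0.0613). In both Txnrd1 and Srxn1, siCtr 0 d replicate 1 was the highest library of the 10.

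Keap1 had 42.3, 47.8 and 39.1 CPM in siIrf1 0 d libraries and 78.9 and 66.2 CPM in siCtr 0 d libraries. The fall was 1.68-fold without overlap (log2 -0.75 ± 0.215, adjusted p = 0.0251). Leaving out any of 5 libraries ended the call, namely siIrf1 0 d replicate 1 (-0.74) or 3 (-0.69), siCtr 0 d replicate 1 (-0.63) and siCtr TGFbeta replicate 2 or 3 (both -0.72). With the GC and length trend removed the value was -0.41 (adjusted p = 0.0493), and with the replicate block in the same fit it was -0.40 (adjusted p = 0.0689). Without siCtr 0 d replicate 1, Gclm alone of the 9 was called. Hmox1 had 42.1, 48.1 and 37.6 CPM with siIrf1 and 62.8 and 49.2 CPM with siCtr, without overlap (-0.39 ± 0.190, adjusted p = 0.135). It was called with the replicate block (-0.47, adjusted p = 0.0360), and with the GC and length trend removed it was -0.01. Slc7a11 had 11.1, 7.46 and 9.58 CPM with siIrf1, against 7.07 and 8.91 CPM with siCtr. The libraries overlapped (log2 0.23 ± 0.358, adjusted p = 0.652), and with the GC and length trend removed the sign turned, to -1.35 (adjusted p = 0.00403), so that no direction can be given for this gene, the poorest in GC of the 9.

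Nqo1 had 71.2, 49.6 and 74.2 CPM in siIrf1 0 d libraries and 79.8 and 56.2 CPM in siCtr 0 d libraries, and the groups overlapped (-0.07 ± 0.220, adjusted p = 0.839). Gclc had 634, 525 and 654 CPM with siIrf1 and 690 and 656 CPM with siCtr, a log2 difference of -0.16 ± 0.143 (adjusted p = 0.422). Nfe2l2 had 152, 160 and 154 CPM with siIrf1 and 124 and 180 CPM with siCtr, the siIrf1 libraries lying between the siCtr ones (0.03 ± 0.220, adjusted p = 0.932).

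With TGFbeta present, Nqo1 was higher and Hmox1 and Srxn1 were lower in siIrf1 than in siCtr cells. These 3 of 9 genes (1 higher, 2 lower) were called, against 18.0% of all genes tested (9.72% higher, 8.28% lower). Nqo1 had 11.5, 12.6 and 12.9 CPM in siIrf1 TGFbeta libraries and 3.42 and 3.96 CPM in siCtr TGFbeta libraries. It was 3.34-fold higher in siIrf1 cells (log2 1.74 ± 0.243, adjusted p = 0.00122), without overlap, as in 46.3% of genes tested. Even so, its siIrf1 TGFbeta libraries stayed below every 0 d library. Hmox1 had 51.1, 59.5 and 43.6 CPM with siIrf1 and TGFbeta, against 117 and 106 CPM with siCtr and TGFbeta. It was 2.17-fold lower in siIrf1 cells (log2 -1.12 ± 0.188, adjusted p = 0.00332). The calls for Nqo1 and Hmox1 held in all 19 settings.

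Srxn1 had 118, 130 and 112 CPM with siIrf1 and TGFbeta, against 234 and 250 CPM with siCtr and TGFbeta. It was 2.02-fold lower (log2 -1.01 ± 0.212, adjusted p = 0.00954), a call lost without siCtr TGFbeta replicate 3 (-1.01, adjusted p = 0.0578). Gclm (150, 128 and 168 CPM with siIrf1, 189 and 203 CPM with siCtr) and Txnrd1 (280, 283 and 254 CPM, against 344 and 369 CPM) were lower in every siIrf1 library. Their log2 fold changes of -0.40 ± 0.167 (adjusted p = 0.135) and -0.39 ± 0.156 (adjusted p = 0.118) missed the threshold. Gclm passed with the GC and length trend removed (-0.95, adjusted p = 0.0204). Txnrd1 passed with the trend removed and the replicate block in 1 fit (-0.40, adjusted p = 0.0428). It was -0.44 without siCtr 0 d replicate 1 or 3, and -0.49 without both siIrf1 TGFbeta replicate 2 and siCtr 0 d replicate 1. Keap1 (-0.18 ± 0.217), Slc7a11 (0.53 ± 0.370), Nfe2l2 (0.15 ± 0.221) and Gclc (0.12 ± 0.144) did not pass. Without siIrf1 TGFbeta replicate 2 and siCtr 0 d replicate 1, Keap1 was -0.46.

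The ratio of the glutamate-cysteine ligase subunits brings these changes together within a library. Gclc over Gclm, both per kilobase, was 0.425, 0.464 and 0.414 in siIrf1 TGFbeta libraries and 0.313 and 0.291 in siCtr TGFbeta libraries. At 0 d it was 2.50, 2.39 and 3.02 with siIrf1 and 1.37 and 1.66 with siCtr. The 4 groups did not overlap, but how often ratios of other genes part in this way was not computed. The ratio was lower in every TGFbeta library than in every 0 d library. It was higher with siIrf1 than with siCtr at either time. Gclc and Gclm differ in transcript GC content (47.7% and 42.1%), along which the libraries also differed, and the part of this in the ratio was not tested.

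**Figure D3:**
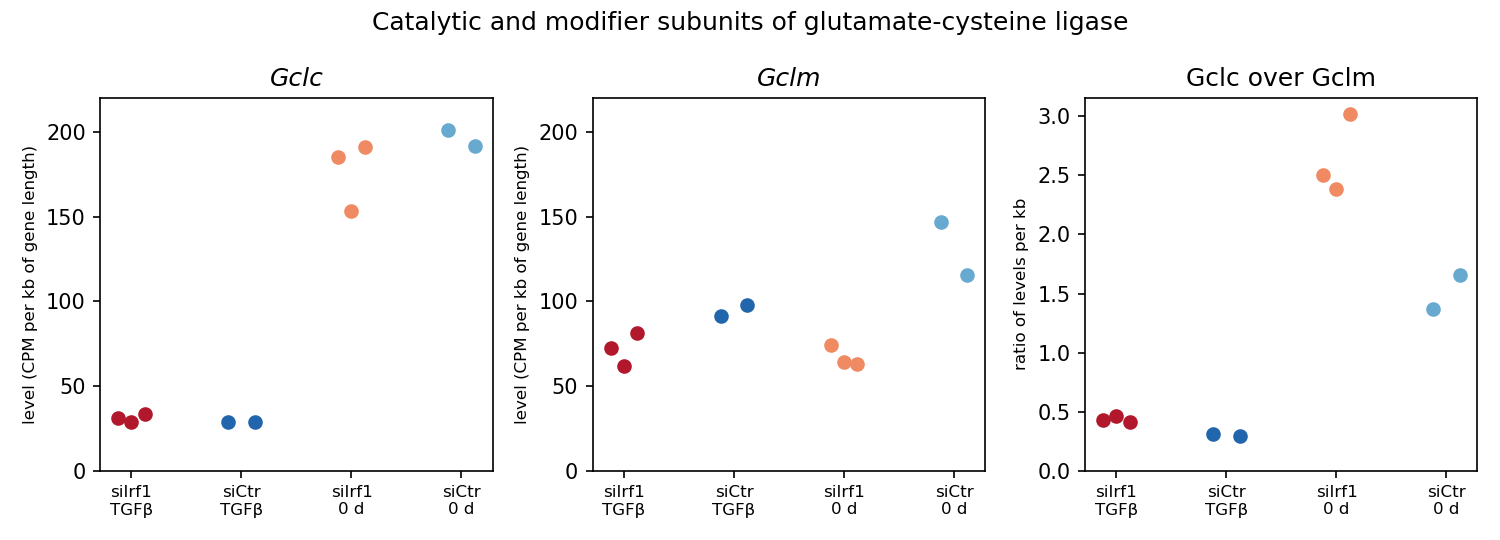
Levels of Gclc and Gclm (CPM per kb of gene length) and their ratio in each library, 1 point per library, by group, on axes from 0. In the ratio the 5 TGFbeta libraries lie between 0.291 and 0.464 and the 5 libraries at 0 d between 1.37 and 3.02.

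Patterns over the 10 libraries were compared as the root mean square difference of log2 CPM centred on each gene's mean, a description without a test. Among the 9 genes, Gclm and Txnrd1 were most alike (0.176) and Nqo1 and Hmox1 least (2.10). Nqo1 was nearest to Gclc among the 9 (0.622). Among 10075 genes averaging 5 CPM or more, those nearest to Nqo1 were Oas1c (0.217), Kcnk5 (0.264) and Neurl3 (0.266). Oas1c, of a family of close copies, averaged 6.33 CPM in siIrf1 TGFbeta, 2.09 in siCtr TGFbeta, 32.3 in siIrf1 0 d and 31.4 CPM in siCtr 0 d. Those nearest to Nfe2l2 were Gphn (0.106), Rbl2 (0.119) and Phlpp2 (0.137).

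The wider pathway was read from 8 lists of genes named for a role, which hold 139 genes, 128 of them tested. With TGFbeta in siCtr cells 15 rose and 47 fell. With TGFbeta in siIrf1 cells 12 rose and 24 fell. For siIrf1 against siCtr, 9 were higher and 41 lower at 0 d, and 9 were higher and 17 lower with TGFbeta. In the interaction 7 passed above and 4 below 0. The measure for these counts is the share over all genes tested. With TGFbeta it was 16.1% higher and 16.3% lower in siCtr cells, and 11.6% and 9.71% in siIrf1 cells. For siIrf1 it was 16.3% higher and 15.5% lower at 0 d, and 9.72% and 8.28% with TGFbeta. In the interaction it was 2.8% and 1.32%. Calls over all genes also changed with the alternatives, so the ranges below are not read as particular to a list. Nothing particular to the lists is read from the counts.

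Of 14 regulators of Nrf2 tested, 1 was called with TGFbeta in siCtr cells and 1 for siIrf1 at 0 d. The shares called over all genes were 32.5% and 31.8%. Maff, a small Maf partner, rose with TGFbeta in siCtr cells (0.63 ± 0.171, adjusted p = 0.0172). Nfe2l1, a relative of Nrf2, was lower in siIrf1 cells at 0 d (-0.67 ± 0.163, adjusted p = 0.0124). With the GC and length trend removed, 3 regulators were higher and 4 lower for siIrf1 at 0 d. Without both siIrf1 TGFbeta replicate 2 and siCtr 0 d replicate 1, some were also called higher with TGFbeta in siIrf1 cells. Both calls were lost in single leave-outs, Maff without siCtr TGFbeta replicate 2 (0.71, adjusted p = 0.0665) or 3 (0.73, adjusted p = 0.0512), Nfe2l1 without siIrf1 0 d replicate 3 (-0.63, adjusted p = 0.0527) or siCtr 0 d replicate 1 (-0.56, adjusted p = 0.111). Over all genes 16.1% rose and 16.3% fell with TGFbeta in siCtr cells, and 11.6% and 9.71% in siIrf1 cells. In the glutathione list (18 tested) 4 rose and 6 fell with TGFbeta in siCtr cells, and 4 rose and 3 fell in siIrf1 cells. In siCtr cells 3 to 7 fell over the alternatives, fewest without siCtr TGFbeta replicate 2. Gss, glutathione synthetase, averaged 57.0 ± 4.74 CPM in siCtr TGFbeta and 286 ± 84.2 CPM in siCtr 0 d (n = 2 each), a log2 fold change of -2.33 ± 0.236. In siIrf1 cells it fell by 1.56 on the log2 scale. Gsr, glutathione reductase, averaged 274 ± 5.89 CPM with TGFbeta and 982 ± 272 CPM at 0 d in siCtr cells (-1.84 ± 0.199). Gpx3, the secreted glutathione peroxidase, was low throughout and rose with TGFbeta in siCtr cells, with 3.82 ± 0.247 CPM against 0.180 ± 0.0882 CPM at 0 d (4.34 ± 0.371). Gsto1, a glutathione transferase, averaged 913 ± 78.9 CPM in siIrf1 TGFbeta and 398 ± 34.6 CPM in siIrf1 0 d (n = 3 each, 1.20 ± 0.154).

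In the thioredoxin and peroxiredoxin list (21 tested), 2 rose and 2 fell with TGFbeta in siCtr cells, and 4 were lower in siIrf1 cells at 0 d (none without siCtr 0 d replicate 1). Over all genes 16.1% rose and 16.3% fell in the first of these comparisons, and 15.5% were lower in the second. Txnip, the thioredoxin inhibitor, averaged 50.3 ± 8.80 CPM in siIrf1 TGFbeta and 139 ± 0.679 CPM in siCtr TGFbeta (-1.47 ± 0.166, adjusted p = 0.000421). Txnrd3 fell with TGFbeta in siCtr cells (-1.87 ± 0.227). Of 9 genes of superoxide and peroxide handling, Cat, catalase, fell with TGFbeta under both siRNAs (-0.83 ± 0.156 in siIrf1, -1.24 ± 0.193 in siCtr cells). Sod3, the extracellular superoxide dismutase, averaged 23.2 ± 6.44 CPM in siIrf1 0 d and 95.2 ± 3.39 CPM in siCtr 0 d (-2.04 ± 0.210, adjusted p = 0.000368).

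Of 12 genes that supply NADPH, the reducing power of both systems, 7 fell and 1 rose with TGFbeta in siCtr cells. The shares over all genes were 16.3% and 16.1%. The count of falls ranged from 2, without siCtr TGFbeta replicate 2, to 7 over the alternatives. G6pdx, glucose-6-phosphate dehydrogenase, averaged 120 ± 7.70 CPM in siCtr TGFbeta and 395 ± 88.5 CPM in siCtr 0 d (-1.72 ± 0.190), and fell by 1.57 in siIrf1 cells on the log2 scale. Me1, malic enzyme, averaged 223 ± 30.1 CPM with TGFbeta and 812 ± 72.9 CPM at 0 d in siCtr cells (-1.87 ± 0.219) and was lower in siIrf1 cells at 0 d (-1.04 ± 0.191). Aldh1l1, a folate enzyme that makes NADPH, rose with TGFbeta under both siRNAs (5.16 ± 0.245 in siIrf1, 4.03 ± 0.292 in siCtr cells).

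Of 15 heme and iron genes, 7 were lower and 2 higher in siIrf1 cells at 0 d, with 4 to 9 lower over the alternatives, fewest without siCtr 0 d replicate 1. Over all genes 15.5% were lower and 16.3% higher in that comparison. Hmox2, the constitutive heme oxygenase, was lower in siIrf1 cells in both conditions. It averaged 28.0 ± 2.44 CPM in siIrf1 TGFbeta and 86.6 ± 0.509 CPM in siCtr TGFbeta (-1.63 ± 0.162), and 35.0 ± 1.95 CPM in siIrf1 0 d and 101.5 ± 18.5 CPM in siCtr 0 d (-1.54 ± 0.162). Slc48a1, a heme transporter, was also lower in both (-0.88 ± 0.146 with TGFbeta, -1.04 ± 0.145 at 0 d). Fth1, the ferritin heavy chain, averaged 1126 ± 83.8 CPM in siIrf1 0 d and 2848 ± 802 CPM in siCtr 0 d (-1.34 ± 0.174). Its near-identical processed copies could take its reads. Other genes of the list averaged higher with siIrf1. At 0 d Tfrc had 226 ± 37.9 CPM with siIrf1 and 45.2 ± 22.1 CPM with siCtr, and Ireb2 48.6 ± 8.40 and 11.5 ± 5.07 CPM. With TGFbeta, Slc40a1 had 140 ± 48.7 CPM with siIrf1 and 53.2 ± 8.68 CPM with siCtr.

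Over all genes 9.71% fell and 11.6% rose with TGFbeta in siIrf1 cells, and 16.3% and 16.1% in siCtr cells. Of 21 detoxification and efflux genes, 10 fell and 2 rose with TGFbeta in siIrf1 cells and 10 fell and 3 rose in siCtr cells. Over the alternatives 9 to 13 fell in siIrf1 cells and 9 to 12 in siCtr cells. Aldh3a1, an aldehyde dehydrogenase, averaged 0.920 ± 0.0646 CPM in siCtr TGFbeta and 68.5 ± 26.1 CPM in siCtr 0 d (-6.22 ± 0.408), and 2.95 ± 0.877 CPM in siIrf1 TGFbeta and 14.1 ± 1.60 CPM in siIrf1 0 d (-2.25 ± 0.276). Its interaction was 3.97 ± 0.450 (adjusted p = 0.00160). Ephx1, microsomal epoxide hydrolase, fell with TGFbeta in siCtr cells (-2.63 ± 0.176) and had an interaction of 2.24 ± 0.217 (adjusted p = 0.00102). With TGFbeta it averaged 199 ± 22.2 CPM in siIrf1 cells and 92.3 ± 7.88 CPM in siCtr cells (1.11 ± 0.157). Both interactions had the sign seen for Nqo1 and held in every alternative setting run. Akr1b3, an aldose reductase with close copies, averaged 24.4 ± 3.63 CPM in siIrf1 TGFbeta and 188 ± 31.3 CPM in siCtr TGFbeta (-2.94 ± 0.197), and was lower in siIrf1 cells at 0 d too (-1.85 ± 0.194).

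The amino acid response list holds genes of the ATF4 pathway, which shares Slc7a11 as a known target with Nrf2. Of its 18 genes, 12 were lower and none higher in siIrf1 cells at 0 d, with 7 to 13 lower over the alternatives, fewest without siCtr 0 d replicate 1. Over all genes 15.5% were lower and 16.3% higher in that comparison. Chac1, which degrades glutathione, averaged 20.0 ± 1.76 CPM in siIrf1 0 d and 90.5 ± 13.7 CPM in siCtr 0 d (-2.18 ± 0.238). Trib3, a pseudokinase induced by ATF4, averaged 34.8 ± 1.86 CPM in siIrf1 0 d and 99.6 ± 6.92 CPM in siCtr 0 d (-1.51 ± 0.231). Slc7a5, an amino acid transporter, averaged 175 ± 20.2 CPM in siIrf1 0 d and 614 ± 88.9 CPM in siCtr 0 d (-1.81 ± 0.149). With TGFbeta in siCtr cells 13 of the 18 fell and 1 rose, with 4 to 13 falling over the alternatives, fewest without siCtr TGFbeta replicate 2. The shares over all genes were 16.3% falling and 16.1% rising. Psat1, of serine synthesis, averaged 369 ± 51.4 CPM in siCtr TGFbeta and 1500.5 ± 369 CPM in siCtr 0 d (-2.02 ± 0.208). Ddit4, a stress-induced inhibitor of mTORC1, was the gene that rose (1.73 ± 0.211).

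**Figure D4:**
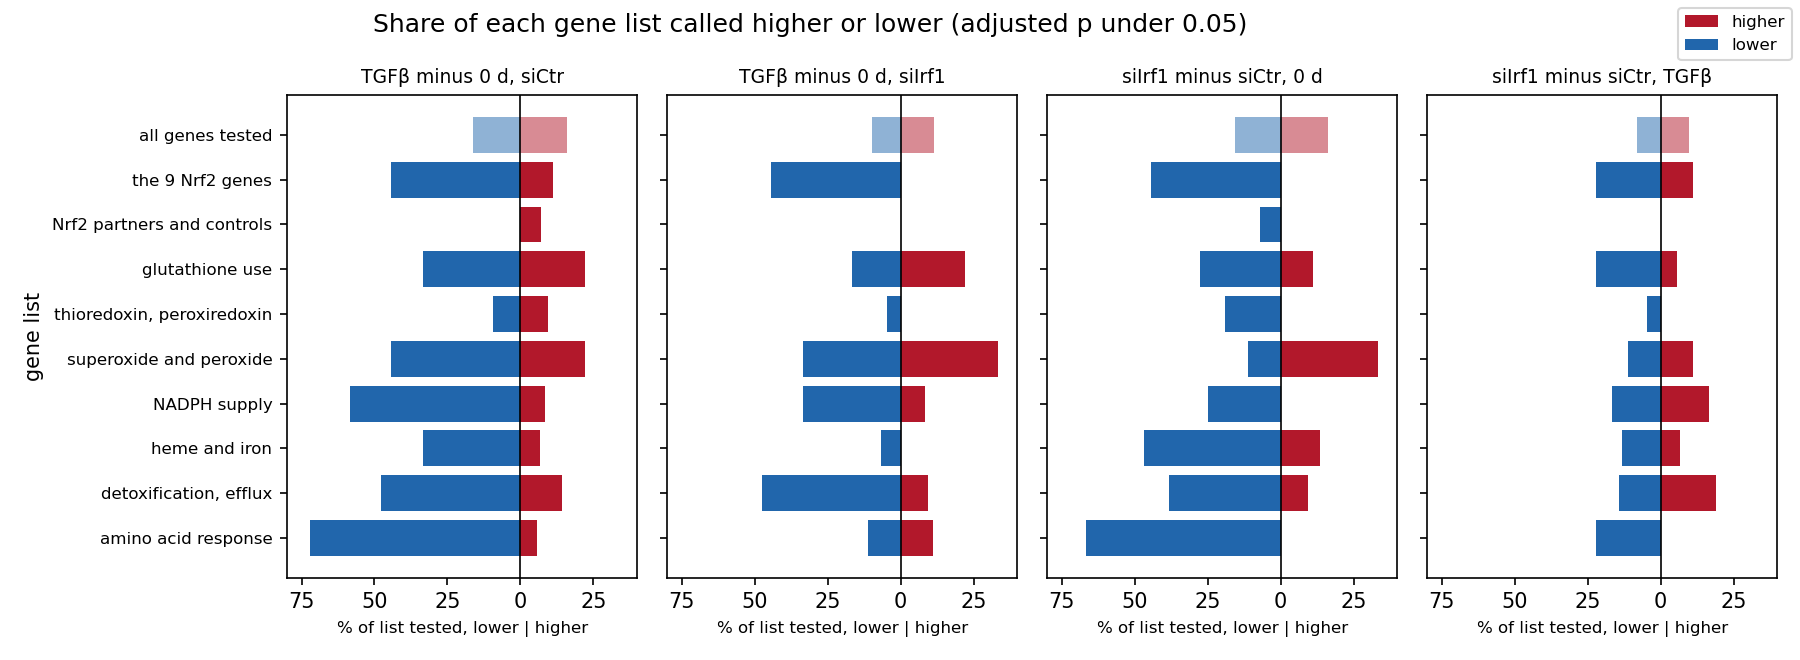
Number of tested genes of each list that were higher or lower at an adjusted p under 0.05 in each comparison, as a share of the list, with the share over all genes tested as a pale bar. The largest shares lower are those of the amino acid response list, 13 of 18 genes with TGFbeta in siCtr cells and 12 of 18 for siIrf1 at 0 d.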

How the data were processed

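RNA was measured by sequencing of stranded libraries on an Illumina instrument in 10 samples, per the labels' protocols. The authors deposited 1 table of raw counts, whole numbers of reads for each gene and library, with a gene length column per the file headers. STAR and the builds mm10 and GRCm38 are named in the submitters' processing notes; for the counting tool and its strand setting, nothing was given in the sources used here. Overlapping genes and close copies may therefore share reads. Of 24454 Entrez identifiers, 24374 were named from RefSeq (GRCm38.p6), 7 from GENCODE and 73 were unmatched (0.211 to 1.50% of a library's counts).

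Counts of all 10 libraries were fitted in R 4.3.3 with edgeR 4.0.16 (TMM, filterByExpr, robust quasi-likelihood test, a term per group), which had 6 residual degrees of freedom. P-values were adjusted for each comparison over its 13135 genes (Benjamini-Hochberg, threshold 0.05), and SE is the log2 fold change over the square root of F. The procedure was also run on simulated counts, which did not hold the GC differences between libraries. That run therefore says nothing about their effect on the results. The members, the gene lists and the rule for named genes were chosen with earlier results of these data known. Named were the 9 genes, Irf1, the markers, the called genes with the lowest adjusted p of each list and comparison (at most 3), and the 3 genes nearest in pattern to Nfe2l2 and to Nqo1. Not every gene of this rule is reported here. Alternatives were RLE size factors, no filter, a filter of 2 CPM in at least 3 libraries, DESeq2 1.42.0, the compared groups alone, the replicate block, removal of a spline trend (4 degrees of freedom each) on GC content and length with and without the block, and each library left out. Leaving out siIrf1 TGFbeta replicate 2 and siCtr 0 d replicate 1 together was chosen after seeing the data. GC content, from GENCODE transcripts, was known for 95.0% of genes tested. No library was a copy of another (chi-square per degree of freedom 24.3 to 305 between replicates).

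Same-numbered libraries were checked for pairing by the correlation of their deviations from group means. Between siIrf1 TGFbeta and siIrf1 0 d all 3 correlations were over 0.1 (0.136 to 0.448), which met the bar for pairs in that comparison, on the evidence of the data alone. Values given are from the fit without the block, and the blocked fit was an alternative. Each replicate number goes with 1 further tag in the sample titles, whose meaning is not stated.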

Additional observations from a re-analysis of the deposited data

Results flagged for a closer look

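The TGFbeta effect on Nqo1 differed between the siRNAs by the interaction test. Its log2 fold change with TGFbeta was -2.40 in siIrf1 cells and -4.20 in siCtr cells, a difference of 1.81 ± 0.321 SE (adjusted p = 0.0127, edgeR). The siIrf1 TGFbeta libraries had 11.5 to 12.9 CPM and the siCtr TGFbeta libraries 3.42 and 3.96 CPM, while the 0 d libraries of both siRNAs overlapped between 49.6 and 79.8 CPM. Over the alternatives the adjusted p ran from 1.94e-05 to 0.127, and it was above 0.05 without siCtr TGFbeta replicate 2 (1.61), siCtr TGFbeta replicate 3 (1.83) or siCtr 0 d replicate 1 (1.49).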

How the results depend on the processing

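Of the 45 values for the 9 genes (9 in each of 5 comparisons), all 45 kept their side of the threshold with DESeq2, RLE size factors, no filter and the stricter filter. Leaving out 1 library at a time kept 415, ended 25 calls and added 10. Values near 0 changed sign in some of these fits (Txnrd1 with TGFbeta in siCtr cells ran from -0.27 to 0.11). With the compared groups alone, Slc7a11 with TGFbeta in siIrf1 cells was no longer called.

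With the trend on GC content and length removed, Slc7a11 for siIrf1 at 0 d was -1.35, or -1.25 with the replicate block, against 0.23. Genes called with TGFbeta in siIrf1 cells were then 4387 (1917 higher, 2470 lower), against 2799 (1523 higher, 1276 lower), and 4349 with the block. For siIrf1 with TGFbeta they were 3588, against 2365, and for the interaction 1249, or 922 with the block and 1171 with DESeq2, against 541. Of the 9 genes, trend removal with the block called 7 with TGFbeta in siIrf1 cells (4 before) and 5 for siIrf1 with TGFbeta (3 before), and with or without it 2 in the interaction (1 before). The cause was not tested.

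Without siIrf1 TGFbeta replicate 2 and siCtr 0 d replicate 1, 4873 genes were called with TGFbeta in siIrf1 cells, 4897 for siIrf1 with TGFbeta, and of the 9 genes 6 were called with TGFbeta in siIrf1 cells, 5 for siIrf1 with TGFbeta and 2 in the interaction.

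Leaving out 1 library, the 9 genes gave 2 to 5 calls with TGFbeta in siIrf1 cells, 3 to 7 with TGFbeta in siCtr cells, 1 to 4 for siIrf1 at 0 d, 2 to 4 for siIrf1 with TGFbeta and 0 to 1 in the interaction. Genes called ran from 1957 to 3300 with TGFbeta in siIrf1 cells. With TGFbeta in siCtr cells they ran from 2297, without siCtr TGFbeta replicate 2, to 5159, with 2788 without siCtr 0 d replicate 1. For siIrf1 at 0 d they ran from 1700, without siCtr 0 d replicate 1, to 5192, with 2583 and 2245 without siIrf1 0 d replicate 1 and 3. For siIrf1 with TGFbeta they ran from 762, without siCtr TGFbeta replicate 2, to 2978, with 859 without siCtr TGFbeta replicate 3 and 1570 without siIrf1 TGFbeta replicate 1. The interaction ran from 122, without siCtr TGFbeta replicate 2, to 1590, without siCtr 0 d replicate 3. It had 182 without siCtr TGFbeta replicate 3, 272 and 279 without siIrf1 0 d replicate 1 and 3, and 267 without siCtr 0 d replicate 1. With 2 siCtr libraries per group, such a fit assumes that the lone library varies like the other groups.

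The replicate block changed no call of the 9 genes between siIrf1 TGFbeta and siIrf1 0 d, where the correlations met the bar for pairs and where 2 of the 3 siIrf1 TGFbeta libraries correlated best with their own number. Over all groups 8 of 12 same-number correlations were over 0.1 (-0.39 to 0.45), and elsewhere the labels do not say what same-numbered samples share. There the block gave Slc7a11 with TGFbeta in siCtr cells -1.05 (adjusted p = 0.0540) and Hmox1 for siIrf1 at 0 d -0.47 (adjusted p = 0.0360). At 2.49 to 11.1 CPM, Slc7a11 was the least precisely measured of the 9.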

Other observations

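Of the 139 genes on the lists, 11 had too few counts to be tested. Among them are catalytic subunits of the NADPH oxidases, membrane enzymes that make superoxide or hydrogen peroxide. In no library did Nox4 exceed 9 counts, Nox1 2 counts, or Duox1 and Duox2 7 counts each. Cyba, the partner subunit of several of these oxidases, had at most 1 count. Gpx2, an epithelial glutathione peroxidase and a known Nrf2 target, had at most 8 counts, Gpx7 1 and Gstt1 3, and Gstt2 was at 0 in all 10 libraries. Of the factors related to Nrf2 or its repressor, Nfe2l3 had at most 11 counts and Bach2 at most 4. These are highest counts in a library of 27547649 to 67301646 counts. With the counting tool not given, low counts of single genes such as Cyba, Epcam or Cldn7 cannot be read as absence of the transcript.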
